A study of Homo sapiens with 6 samples.

Results

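The genes described are those of the serpins, the alpha-2-macroglobulin family and a few other secreted or cytosolic protease inhibitors, in MDA-MB-231 cells with and without selamectin. Every transcript cluster annotated with exactly 1 symbol beginning SERPIN was taken, together with A2M, A2ML1, PZP, SLPI, TFPI, TFPI2, CST3, CST6, CSTA and CSTB. After 3 pseudogenes were left out this gave 40 genes of the 18417 named genes on the array, 30 of them serpins. Each had a single cluster, so no choice between clusters was needed. SERPINB2 and SERPINB6 were not analysed here.

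MDA-MB-231 cells are a long-established line grown from a human breast cancer that lacks hormone receptors and HER2. The study set 3 arrays of cells given 1 µM selamectin, an avermectin antiparasitic, for 24 h against 3 control arrays. Titles call the controls untreated, whereas the protocol speaks of a vehicle, so what they received is not settled. All 6 cultures were of this 1 line, the design text calls the replicates independent, and the p-values measure the spread between these cultures only. Values are log2 expression values. Differences are selamectin minus untreated, and a gene counts as called where the limma p, adjusted over all 18417 genes, is under 0.05. Of 8 genes that mark this line, 7 lay at or above the 75th percentile of array signal, AXL being the exception at the 71st. Of 7 genes that should be low, ESR1, PGR, CDH1, GATA3 and KRT5 were under the median gene, which lay at 8.24. FOXA1 (9.76 ± 0.06 untreated, SD, n = 3) and ERBB2 (9.17 ± 0.18) were brighter than it. With selamectin KRT5 of the 7 (0.46, limma adjusted p = 0.014) and CD44 of the 8 (0.42, 0.02) were called higher, and none of these markers was called lower.

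Serpins offer a protease a bait loop; once the loop is cut, the serpin changes shape and traps the enzyme in a covalent complex. Alpha-2-macroglobulin closes around proteases of every class after they cut its bait region. Both kinds of complex are taken up by receptors of the LDL receptor family, LRP1 foremost. Cystatins instead block papain-like cysteine proteases reversibly, and the Kunitz and WAP inhibitors plug the active site of serine proteases. Some serpins inhibit nothing: HSP47, the product of SERPINH1, is a collagen chaperone, and maspin, the product of SERPINB5, is an epithelial protein studied as a suppressor of mammary tumours.

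Few of these genes passed the test, and those that did moved in both directions. SERPINB8 rose, and A2M and SERPINI1 fell. The 3 called genes are 7.5% of 40, beside 4.69% of all genes tested; 1 was higher, beside 2.41% of all genes, and 2 were lower, beside 2.28%. With the limma p left unadjusted, 4 were higher and 4 lower at the same threshold, which is 20% of the 40 beside 19.9% of all genes. The selamectin arrays all lay above the untreated arrays for 7 genes and all below them for 4. Together these are 27.5% of the 40, beside 25.3% over all genes, of which 16.0% lay above and 9.30% below. The unadjusted and non-overlap shares are close to those of the array as a whole. The median log2 change was 0.07, beside 0.04 for all genes, and 28 of the 40 changes were positive, beside 63.0% of all genes. The other 37 genes had changes between -0.27 and 0.34. Their 95% intervals reached no lower than -0.45 (PZP) and no higher than 0.53 (SERPINB5); these intervals are not adjusted for the number of genes.

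**Figure D1:**
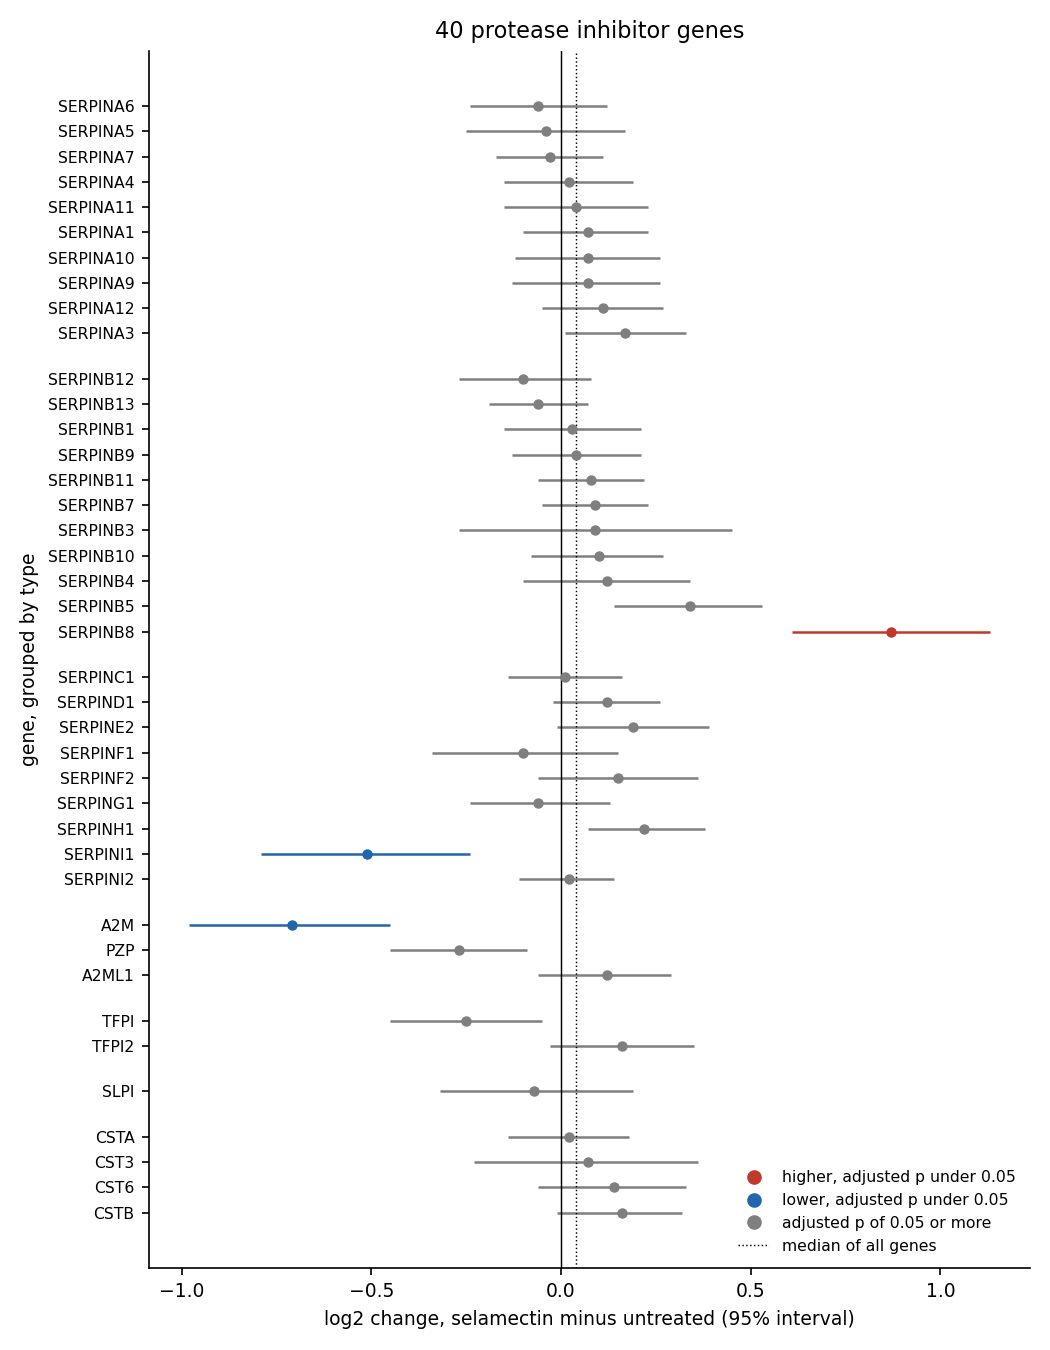
The log2 change of each of the 40 genes (points, x axis, selamectin minus untreated) with its 95% interval (bars), grouped by inhibitor type from clade A serpins at the top to cystatins at the bottom. SERPINB8 lies at 0.87, A2M at -0.71 and SERPINI1 at -0.51; the other 37 lie between -0.27 and 0.34, and the dotted line marks the median of all genes at 0.04.

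Array signal was low for much of the family. Of the 40 genes, 22 had a mean over the 6 arrays under the 25th percentile of all genes (6.45), and 30 were under the median of 8.24. None of the 22 was called, beside 4.69% of all genes. In limma, 2 of them had an unadjusted p under 0.05 with a higher value and 1 with a lower value. Over all genes, 19.9% had such a p in either direction. Detection calls were not used here, so which of the dim genes stood above background is not known. Summaries of this kind compress changes in dim genes. Signal also depends on each cluster's probes, so values are compared between arrays and not between genes.

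SERPINB8 encodes an intracellular clade B serpin that inhibits furin and trypsin-like proteases. Its log2 values were 6.68, 6.49 and 6.86 on untreated arrays 1 to 3 and 7.65, 7.33 and 7.66 on selamectin arrays 1 to 3. All 3 treated arrays lay above all 3 controls, and selamectin array 2 was the lowest of the treated ones. The means were 6.68 ± 0.19 and 7.55 ± 0.19 (SD, n = 3), a 1.83-fold rise (log2 change 0.87 ± 0.12 SE, 95% interval 0.61 to 1.13, limma adjusted p = 0.0047). The call was made in each of the 15 alternative settings that tested the gene, with adjusted p between 0.001 and 0.045. It was not tested where genes under the median signal were removed.

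The 250 bases before the RefSeq start of SERPINB8 (GRCh38.p14, chr18:63969831-63970080, plus strand) are shown because it was the only gene of the group called higher. Those of SERPINB5 (chr18:63476708-63476957, plus strand), at the other end of the same gene cluster, are set beside them. Capitals mark matches on either strand to any of 5 motifs. These are the core promoter letters TATAAA, the AP-1 letters TGANTCA, the hypoxia element core ACGTG, the SP/KLF letters GGGCGG and the E-box CACGTG, which contains the hypoxia core.
SERPINB8: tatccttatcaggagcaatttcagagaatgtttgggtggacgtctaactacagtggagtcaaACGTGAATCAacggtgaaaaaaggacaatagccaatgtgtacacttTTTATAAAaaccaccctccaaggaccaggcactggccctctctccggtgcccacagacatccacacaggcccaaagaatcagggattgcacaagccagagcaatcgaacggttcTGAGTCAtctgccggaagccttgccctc
SERPINB5: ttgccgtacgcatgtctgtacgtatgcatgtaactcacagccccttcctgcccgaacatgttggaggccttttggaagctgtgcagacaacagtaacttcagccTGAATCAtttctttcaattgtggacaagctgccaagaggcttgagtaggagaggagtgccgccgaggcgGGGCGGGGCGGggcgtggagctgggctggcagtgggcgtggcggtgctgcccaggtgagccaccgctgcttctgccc
The SERPINB8 window holds TGANTCA beginning 185 and 28 bases before the start. The first of these overlaps an ACGTG at 188, and TATAAA occurs on both strands at 140 and 142 bases, the matches overlapping each other. The SERPINB5 window holds a single TGANTCA at 146 bases and GGGCGG at 77 and at 72. The SERPINB8 window also overlaps the noncoding RNA gene LOC105372165.

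RefSeq windows were matched for 29 of the 40 genes. TGANTCA occurred in 6 of the 29 (SERPINB5, SERPINB8, SERPINB12, SERPINB13, SERPINI2 and TFPI2), or 20.7%, beside 4.91% of the windows of 14239 tested genes. TATAAA occurred in 17.2% beside 8.60%, ACGTG in 6.90% beside 21.1%, CACGTG in 3.45% beside 7.86% and GGGCGG in 27.6% beside 57.5%. Base composition differed as well, with a median of 49.2% G or C in the 29 windows and 62.8% over tested genes. Of the 6 genes with TGANTCA, only SERPINB8 was called in limma; SERPINB12 (-0.10) and SERPINB13 (-0.06) had negative changes. A match of letters shows neither binding nor a cause.

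SERPINB5 stood just short of the threshold. Its log2 values were 5.97, 5.95 and 6.18 untreated and 6.44, 6.42 and 6.25 with selamectin. The groups did not overlap, but untreated array 3 and selamectin array 3 were only a little apart. The change was 0.34 (interval 0.14 to 0.53, limma adjusted p = 0.052). It passed with median-centred arrays, a robust fit or array weights, and without selamectin array 3 (adjusted p from 0.031 to 0.048); over the settings in which it missed the threshold, adjusted p reached 0.18.

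The other clade B serpins on chromosome 18 lie between these 2 genes in the order SERPINB12, SERPINB13, SERPINB4, SERPINB3, SERPINB11, SERPINB7 and SERPINB10. Their 7 changes ran from -0.10 to 0.12, none was called, and the selamectin and untreated arrays overlapped for each. These are mostly serpins of skin and other squamous epithelia, and all 7 were under the 25th percentile of signal. SERPINB3 and SERPINB4, the squamous cell carcinoma antigens, are nearly identical copies whose probes may not tell them apart. SERPINB3 stood at 6.67 on selamectin array 1 but at 6.03 and 5.95 on arrays 2 and 3, within the untreated range of 5.99 to 6.34 or just under it. SERPINB4 was highest on selamectin array 3, at 5.43, where the other 5 arrays lay between 4.97 and 5.12. Neither outlying array was shared by the other gene.

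SERPINB1 and SERPINB9 are the clade B genes on chromosome 6. SERPINB1, an inhibitor of neutrophil elastase and related proteases, had values of 12.19, 12.29 and 12.19 untreated and 12.38, 12.25 and 12.13 with selamectin. The groups overlapped and the change was 0.03 (interval -0.15 to 0.21); its sign turned under a second quantile normalization (-0.02). SERPINB9, the granzyme B inhibitor, had a change of 0.04 (interval -0.13 to 0.21).

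**Figure D2:**
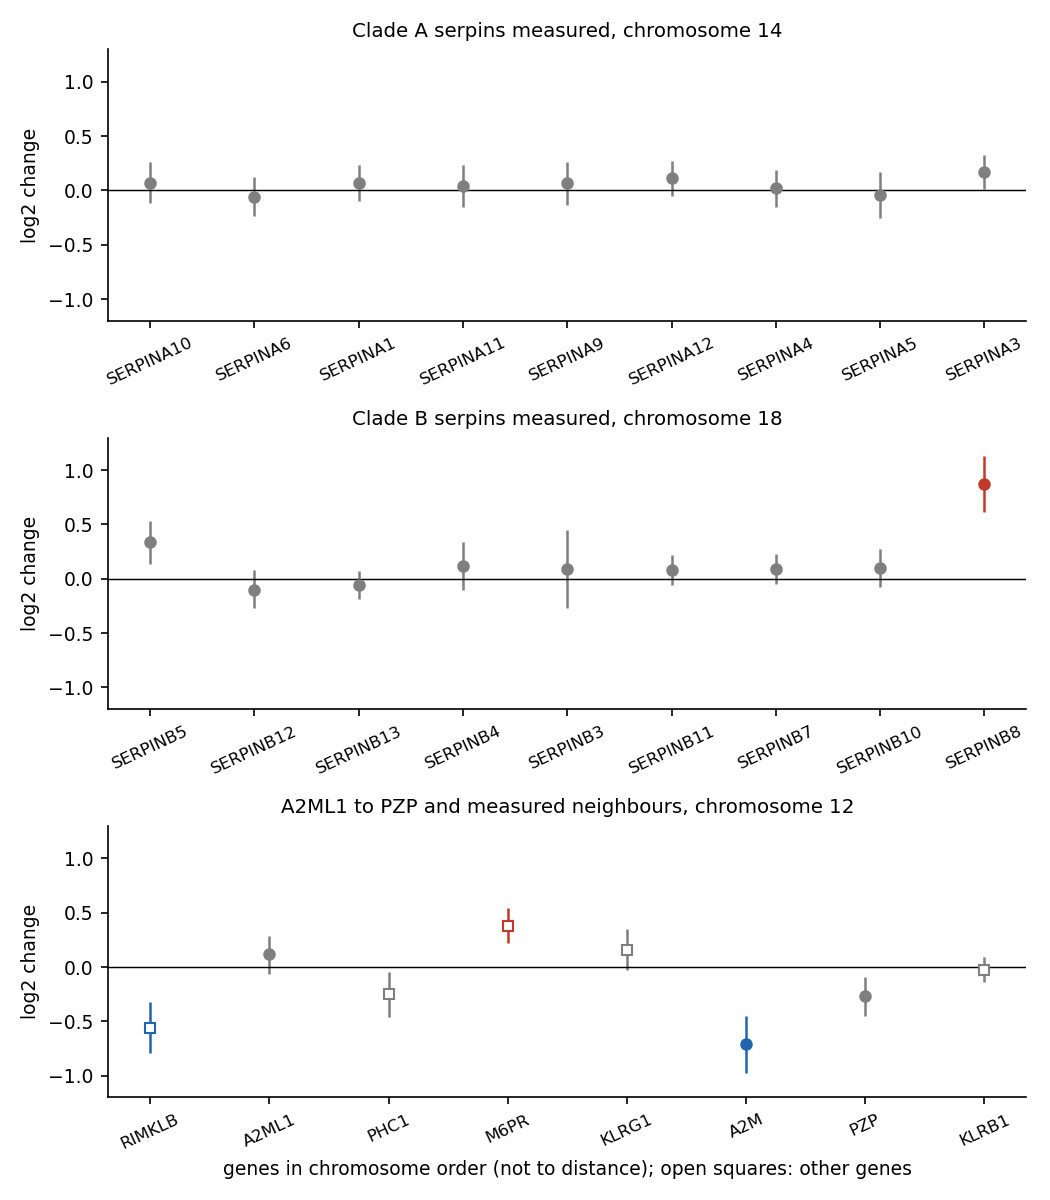
The log2 change (y axis, with 95% interval) of the clade A serpins measured on chromosome 14, the clade B serpins measured on chromosome 18 and the measured protein-coding genes from RIMKLB to KLRB1 on chromosome 12, in RefSeq order along the x axis and not to distance. SERPINB8 at 0.87 and SERPINB5 at 0.34 stand at the ends of the chromosome 18 cluster; on chromosome 12, A2M lies at -0.71 and PZP at -0.27 while M6PR lies at 0.38.

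A2M encodes alpha-2-macroglobulin, the broad protease trap of plasma, which some tumour lines and fibroblasts also make. Its log2 values were 11.58, 11.71 and 11.88 on the untreated arrays and 11.05, 11.22 and 10.76 on the selamectin arrays. All treated arrays were below all controls, with selamectin array 3 the lowest and untreated array 3 the highest. The means were 11.72 ± 0.15 and 11.01 ± 0.23 (SD, n = 3), so A2M was 1.64-fold lower (log2 change -0.71 ± 0.12 SE, interval -0.98 to -0.45, limma adjusted p = 0.010). The call was lost without untreated array 3 (-0.64, adjusted p = 0.053) and when every cluster of the array entered the fit (adjusted p = 0.068). Without selamectin array 3 the change was -0.59 and the call was kept (adjusted p = 0.0071).

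PZP, the pregnancy zone protein, is the close relative of A2M that lies next to it. It had values of 6.37, 6.58 and 6.49 untreated and 6.21, 6.14 and 6.30 with selamectin. The groups did not overlap, with a change of -0.27 that did not pass (interval -0.45 to -0.09, limma adjusted p = 0.091); with array weights it passed (0.010). PZP and A2M are alike in sequence, PZP was under the 25th percentile of signal, and a share of A2M transcript in the PZP signal was not tested. A2ML1, the alpha-2-macroglobulin-like inhibitor of stratified epithelium, had a change of 0.12 (interval -0.06 to 0.29) with overlapping groups.

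Genes around A2M went both ways. On chromosome 12, RIMKLB, on the far side of A2ML1, fell by 0.56 (limma adjusted p = 0.017). M6PR, the cation-dependent mannose 6-phosphate receptor, lies between A2ML1 and A2M and rose by 0.38 (adjusted p = 0.018). KLRG1 and KLRB1, the nearest measured genes outside the A2M and PZP pair, had changes of 0.16 and -0.03 and were not called.

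SERPINI1 encodes neuroserpin, an inhibitor of tissue plasminogen activator best known from neurons. It had log2 values of 9.17, 8.79 and 9.03 untreated and 8.63, 8.54 and 8.27 with selamectin. The groups did not overlap, although untreated array 2 came within a short distance of selamectin array 1. With an SD of 0.19 in each group (n = 3), the gene fell 1.43-fold (log2 change -0.51 ± 0.13 SE, interval -0.79 to -0.24, limma adjusted p = 0.043). The call was lost without untreated array 1 (adjusted p = 0.17), untreated array 3 (0.15), selamectin array 2 (0.11) or selamectin array 3 (0.073). It was also lost with median-centred arrays (0.053) and with all clusters in the fit (0.14). The log2 change stayed between -0.62 and -0.41 throughout. Over all genes, dropping untreated array 1 left 76 higher and 100 lower calls in place of 444 and 420. SERPINI2, its pancreatic relative on the same chromosome, had a change of 0.02 (interval -0.11 to 0.14) at low signal.

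SERPINI1 starts 829 bases from PDCD10, a gene on the opposite strand that encodes a signalling adaptor, by the RefSeq starts of GRCh38.p14. PDCD10 had a change of -0.02 (limma adjusted p = 0.93), so of this divergent pair only SERPINI1 was called; the difference between them was not tested. The 250 bases before the SERPINI1 start (chr3:167735471-167735720, plus strand) held 64.8% G or C and no match to the 5 motifs above, and are shown as the start region of a gene that fell beside a partner that was not called.
SERPINI1: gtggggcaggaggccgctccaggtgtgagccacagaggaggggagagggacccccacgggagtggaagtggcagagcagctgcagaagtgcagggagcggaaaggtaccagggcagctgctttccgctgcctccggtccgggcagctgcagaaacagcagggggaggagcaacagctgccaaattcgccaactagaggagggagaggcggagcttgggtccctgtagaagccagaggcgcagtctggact

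SERPINH1, which encodes the collagen chaperone HSP47, had log2 values of 12.10, 12.18 and 12.05 untreated and 12.35, 12.33 and 12.32 with selamectin. Every treated array was higher than every control and the treated SD was only 0.02. The change was 0.22 (interval 0.07 to 0.38) and did not pass (limma adjusted p = 0.10). It passed with array weights (0.27, adjusted p = 0.0081), a setting that gave 1822 higher and 1464 lower calls over all genes. Untreated array 3 had the most weight and was the lowest control here, but its part in this call was not tested. As SERPINH1 is a textbook target of heat shock factor, its RefSeq window (chr11:75562003-75562252, plus strand) was searched for TTCNNGAA and GAANNTTC, a search added after its value was seen; matches are in capitals.
SERPINH1: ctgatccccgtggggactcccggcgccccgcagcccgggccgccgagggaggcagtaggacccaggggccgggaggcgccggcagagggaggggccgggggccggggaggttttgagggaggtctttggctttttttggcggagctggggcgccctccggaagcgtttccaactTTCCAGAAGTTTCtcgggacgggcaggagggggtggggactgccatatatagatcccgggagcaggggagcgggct
Both forms occurred, beginning 76 and 71 bases before the start and overlapping each other. At least 1 of the 2 forms occurred in 7 of the 29 windows of the group and in 9.72% of windows of tested genes.

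**Figure D3:**
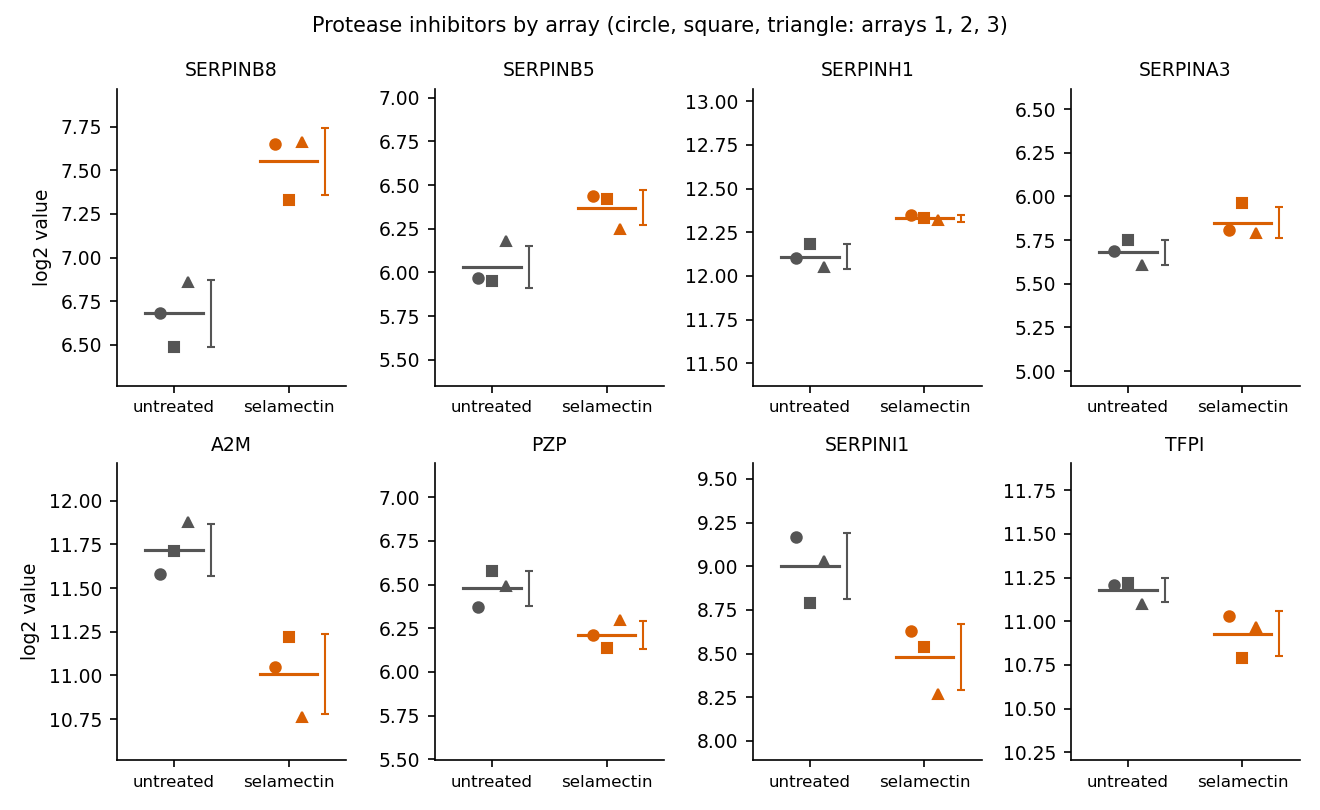
Log2 values (y axis, each panel spanning the same range) of the 8 protease inhibitor genes with an unadjusted p under 0.05, by array; symbols are arrays 1, 2 and 3, lines the means and bars the SD. The groups are apart in each panel, by the most for SERPINB8, A2M and SERPINI1; the controls of SERPINH1 lie between 12.05 and 12.18 and its treated arrays between 12.32 and 12.35.

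The 10 clade A serpins, whose best known members are made by liver for plasma, gave no call. Their group means lay between 4.92 and 7.42, and each gene was under the median signal of the array. Changes ran from -0.06 to 0.17, with a median of 0.05. Alpha-1-antitrypsin, the elastase inhibitor encoded by SERPINA1, had values of 6.21, 6.27 and 6.27 untreated and 6.39, 6.21 and 6.34 with selamectin, which overlap. SERPINA3, which encodes the cathepsin G inhibitor antichymotrypsin, had the largest change of the clade. It stood at 5.69, 5.75 and 5.61 untreated and 5.81, 5.96 and 5.79 with selamectin, without overlap; the change of 0.17 did not pass (interval 0.01 to 0.33, limma adjusted p = 0.22) except with array weights (0.021). The remaining 8 comprise SERPINA4, SERPINA5, SERPINA9, SERPINA10, SERPINA11 and SERPINA12, with SERPINA6 and SERPINA7, the carriers of corticosteroid and thyroid hormone; their changes ran from -0.06 to 0.11. Of 7 hepatocyte markers, 6 were measured. Their summed log2 values lay between 35.42 and 36.22 untreated and between 36.16 and 36.75 with selamectin, and ALB had a mean of 4.99 untreated and 5.13 with selamectin. Their part in the clade A values was not tested.

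Clades C, D, E, F and G of plasma and tissue serpins held no call either. SERPINE2, or protease nexin-1, an inhibitor of thrombin and urokinase, had values of 11.27, 11.06 and 11.15 untreated and 11.41, 11.41 and 11.23 with selamectin. Its highest control exceeded its lowest treated array, and the change was 0.19 (interval -0.01 to 0.39, limma adjusted p = 0.27); it passed only with array weights (0.041). Antithrombin, encoded by SERPINC1, had a change of 0.01 (interval -0.14 to 0.16) and heparin cofactor II, encoded by SERPIND1, by 0.12 (interval -0.02 to 0.26). SERPINF1 encodes the antiangiogenic factor PEDF. It stood at 7.14, 7.37 and 7.46 untreated and at 7.20, 7.40 and 7.08 with selamectin, overlapping, for a change of -0.10 (interval -0.34 to 0.15). The plasmin inhibitor gene SERPINF2 had a change of 0.15 (interval -0.06 to 0.36) and SERPING1, the C1 inhibitor gene, by -0.06 (interval -0.24 to 0.13).

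Among inhibitors of other folds, the 2 tissue factor pathway inhibitors had changes of opposite sign. TFPI, which blocks factor Xa and the tissue factor complex, had values of 11.21, 11.22 and 11.10 untreated and 11.03, 10.79 and 10.97 with selamectin. The treated arrays were all lower, with a change of -0.25 that did not pass (interval -0.45 to -0.05, limma adjusted p = 0.16). TFPI2, a matrix-bound inhibitor of plasmin and related proteases, had values of 10.05, 10.12 and 10.07 untreated and 10.33, 10.20 and 10.20 with selamectin. Its treated arrays were all higher, and its change of 0.16 did not pass (interval -0.03 to 0.35, adjusted p = 0.32).

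SLPI, the secretory inhibitor of neutrophil elastase, had values of 11.12, 11.32 and 11.35 untreated and 11.16, 11.43 and 10.99 with selamectin. The groups overlapped, with a change of -0.07 (interval -0.32 to 0.19) whose sign turned without selamectin array 3 (0.04).

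The 4 cystatin genes all had positive changes, from 0.02 to 0.16, and none was called. CSTB, the cytosolic cystatin B, had values of 11.96, 11.86 and 11.93 untreated and 12.09, 12.14 and 11.99 with selamectin. Its groups did not overlap, and the change of 0.16 did not pass (interval -0.01 to 0.32, limma adjusted p = 0.28). CST3, the secreted cystatin C, had values of 10.99, 11.39 and 11.26 untreated and 11.35, 11.49 and 11.01 with selamectin. These overlap almost fully, and the change of 0.07 (interval -0.23 to 0.36) turned negative without untreated array 1 or selamectin array 2 (-0.04 each). CST6, or cystatin M, had a change of 0.14 (interval -0.06 to 0.33) and CSTA, the cystatin of cornified epithelium, by 0.02 (interval -0.14 to 0.18).

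Selamectin array 3 gave the lowest of the 6 values for 11 of the 40 genes, or 27.5%, beside 20.2% of all genes. A2M, SERPINI1, SLPI, SERPINF1, SERPING1 and SERPINB1 were among them. Relative to the untreated mean, the median deviation of the 40 genes was 0.04, 0.08 and 0.01 on selamectin arrays 1 to 3, beside 0.05, 0.07 and 0.01 for all genes. The part of this array in the results was not tested beyond the values given without it.

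The receptors and proteases that these inhibitors meet were read from 9 lists of related genes, 139 genes in all. In limma 3 rose and 7 fell, which is 7.19% of the 139 beside 4.69% of all genes. As the lists were chosen with earlier results of these data known, this share is not an independent result. The median log2 change was 0.03. LRP1, the receptor that clears A2M and serpin complexes, had the largest fall. Its values were 10.07, 9.94 and 10.17 untreated and 9.46, 9.20 and 9.26 with selamectin, with no overlap. LRP1 fell 1.69-fold (log2 change -0.75 ± 0.10 SE, limma adjusted p = 0.0047) and was called in all 16 alternative settings (adjusted p up to 0.043). A2M and its receptor gene were each called lower with selamectin, and a link between these changes was not tested.

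In the 17 genes of the plasminogen activation list, PLGRKT, a plasminogen receptor, fell by 0.64 (limma adjusted p = 0.0084), and ENO1, an enolase also found as a plasminogen binder, rose by 0.23 (0.040). The serpin-regulated activators were not called: PLAT, the target of neuroserpin, had a change of 0.04 (interval -0.19 to 0.28) and PLAU, a target of protease nexin-1, by -0.19 (interval -0.40 to 0.03). The urokinase receptor gene PLAUR had a change of 0.34 (interval 0.06 to 0.62, adjusted p = 0.16). VLDLR, a receptor related to LRP1, had values of 9.91, 9.65 and 9.86 untreated and 9.69, 9.48 and 9.17 with selamectin; these overlap, and its change of -0.36 did not pass (adjusted p = 0.16).

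In the 20 measured genes of coagulation and the protein C pathway, PROCR, the endothelial protein C receptor, was the only call. It stood at 9.69, 9.83 and 9.83 untreated and at 9.20, 9.05 and 9.02 with selamectin, and fell 1.61-fold (limma adjusted p = 0.0047). Tissue factor, the trigger that TFPI restrains, is encoded by F3, which had a change of -0.13 (interval -0.34 to 0.07). The thrombomodulin gene THBD had a change of 0.11 (interval -0.08 to 0.30). Of 7 endothelial markers none was called; their summed log2 values lay between 46.49 and 47.40 untreated and 46.66 and 47.27 with selamectin. PECAM1 and VWF were dim, at 5.48 and 5.78 untreated, while CDH5 stood at 9.52 untreated and 8.93 with selamectin (adjusted p = 0.067); the part of such markers in the PROCR result was not tested.

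**Figure D4:**
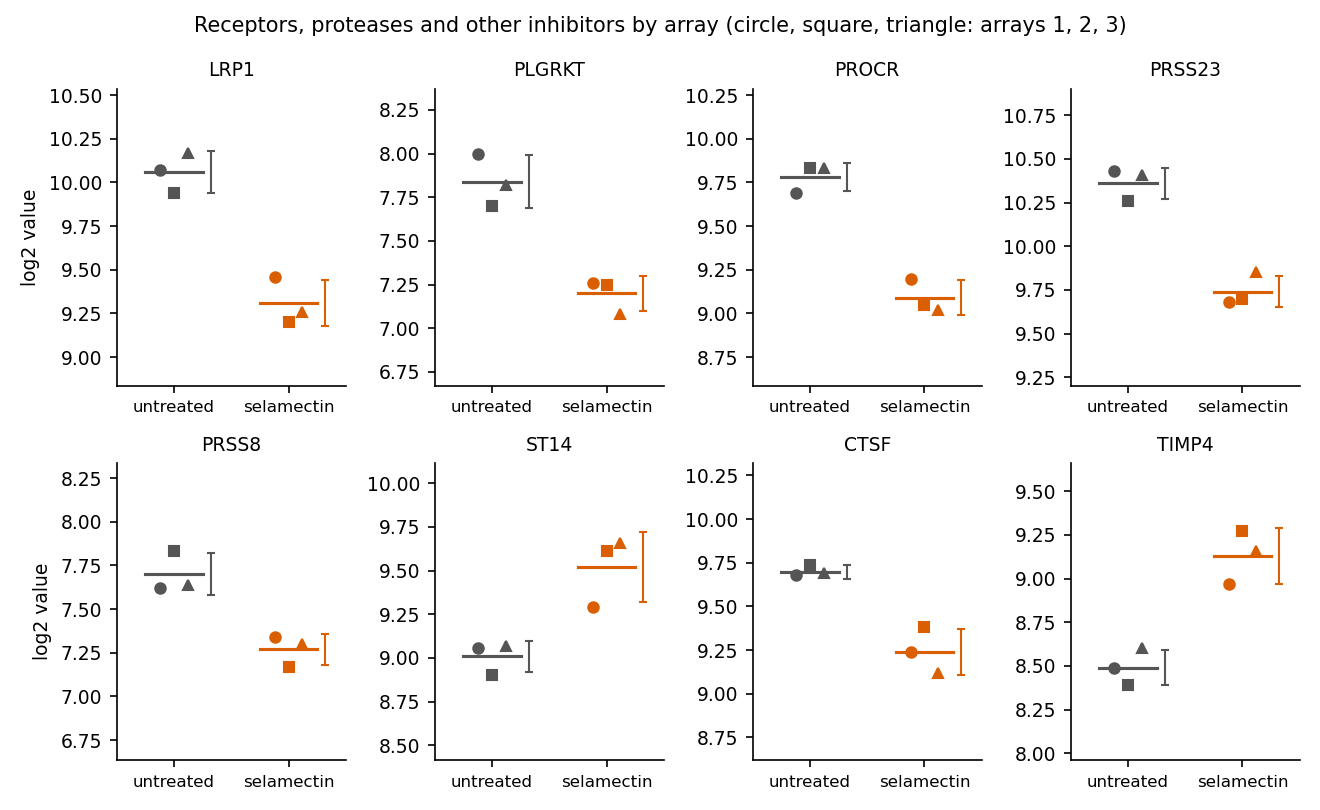
Log2 values (y axis, each panel spanning the same range) by array of 8 called genes of the related lists: LRP1, PLGRKT and PROCR (receptors), PRSS23, PRSS8, ST14 and CTSF (proteases) and TIMP4 (a metalloproteinase inhibitor); symbols are arrays 1, 2 and 3, lines the means and bars the SD. ST14 and TIMP4 are higher with selamectin, and the other 6 are lower, with LRP1 between 9.94 and 10.17 untreated and between 9.20 and 9.46 with selamectin.

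Among 24 measured membrane serine proteases and kallikreins, PRSS23 fell by 0.62 (limma adjusted p = 0.0067) and PRSS8, or prostasin, by 0.43 (0.030). ST14, or matriptase, which activates prostasin, rose by 0.51 (0.033). SPINT1, the Kunitz inhibitor of matriptase, had values of 9.79, 10.24 and 9.93 untreated and 9.66, 9.48 and 9.38 with selamectin, and its change of -0.48 did not pass (adjusted p = 0.054). It was 1 of 20 other Kunitz, Kazal and WAP inhibitors measured, of which none was called by limma. Of these 20, 3 had a higher and 2 a lower value at an unadjusted p under 0.05, beside 19.9% of all genes in either direction.

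Of 12 papain-like cathepsins and legumain, the targets of cystatins, 10 had negative changes, beside 6821 of all 18417 genes. The median was -0.11, beside 0.04 for all genes. In limma, 4 of the 12 had a lower value at an unadjusted p under 0.05 and 0 a higher one. CTSF fell by 0.46 (limma adjusted p = 0.025). CTSB had a change of -0.29 (adjusted p = 0.12) and CTSV one of -0.31 (0.066). None of 12 leukocyte serine proteases and caspases bound by serpins was called by limma, and 2 had a lower value at an unadjusted p under 0.05, CASP1 at -0.37 (adjusted p = 0.051) and CASP4 at -0.38 (0.067). No call was made by limma among 13 other cystatins, of which 2 were higher at an unadjusted p under 0.05, or among 10 thioester and inter-alpha-trypsin proteins, of which 1 was. Over all genes, 19.9% had an unadjusted limma p under 0.05 in either direction. Among 11 further inhibitors, TIMP4 rose by 0.64 (0.0097) and TIMP2 fell by 0.34 (0.038).

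Of these 10 calls in related genes, LRP1, PROCR and PRSS23 were made in all 16 alternative settings and PLGRKT was lost only with all clusters in the fit (adjusted p = 0.053). With all clusters in the fit TIMP4, CTSF, ST14, ENO1, PRSS8 and TIMP2 were lost too. TIMP4 was also lost without untreated array 1 or selamectin array 2. CTSF was lost without any one untreated array or selamectin array 1, and ST14 without any one untreated array or selamectin array 2. ENO1, PRSS8 and TIMP2 kept the call only without selamectin array 3 among the fits that left out an array. ENO1 was also lost with no eBayes trend (adjusted p = 0.099) and TIMP2 with median-centred arrays (0.050).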

How the data were processed

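RNA of 3 untreated and 3 selamectin cultures was hybridised to Affymetrix arrays. The authors deposited 1 value per transcript cluster and array, taken here as log2 expression values; Affymetrix Expression Console, RMA and Transcriptome Analysis Console appear in the submitters' processing notes, without version or setting, and the log base is in no header. As RMA usually equalises arrays, a shift of all genes in a group would be lost. Array medians lay between 7.47 and 7.51. Scanner files and scan dates were not used here, so no batch was tested. Precision is limited by the number of arrays; over the 40 genes the median standard error was 0.08.

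Clusters with 1 symbol (19460 of 33297) were named from the platform annotation, 19429 of them matched in RefSeq (GRCh38.p14, 0 symbols changed); the brightest cluster stood for each of 18417 genes. The two-sided test was that of limma 3.58.1 (R 4.3.3, lmFit, eBayes with trend), with no block, and p-values were adjusted over all genes by Benjamini-Hochberg. On simulated data the fit recovered 75% of genes given a log2 change of 0.5 and 100% of those given 1. Of its 192 calls there, 17 were false. Members and lists were chosen with earlier results of these data known. Genes named are those with an unadjusted p under 0.05, the 10 brightest members, a set of familiar inhibitors and up to 4 of each related list, with further members and partner genes (PLAU, PLAT, PLAUR, F3, THBD and chromosome neighbours) chosen afterwards. Alternatives were other normalizations, signal filters, eBayes settings, array weights, a replicate block, averaged or all clusters, leaving out each array, and other thresholds. Promoter windows came from RefSeq.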

Additional observations from a re-analysis of the deposited data

How the results depend on the processing

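Without any one array, between 1 and 2 members were called higher and between 0 and 2 lower; genes of the related lists numbered between 0 and 6 higher and between 4 and 9 lower. Calls over all genes moved as well, from 444 higher and 420 lower. Dropping untreated array 1 gave 76 and 100, dropping untreated array 3 gave 140 and 114, dropping selamectin array 2 gave 96 and 138, and dropping selamectin array 3 gave 685 and 464. Members called higher numbered 2 with median-centred arrays, 2 with robust eBayes, 5 with array weights (where 3 were lower), 2 at adjusted p under 0.1, 4 at unadjusted p under 0.05 and 0 with the filter at the median signal, which removed SERPINB8. Members called lower numbered 1 with median-centred arrays, 0 with all clusters in the fit and 4 at unadjusted p under 0.05. Over all 18417 genes, array weights gave 1822 higher and 1464 lower, median-centred arrays 466 and 346, robust eBayes 529 and 471, all clusters 82 and 85, and an unadjusted p under 0.05 gave 2162 and 1512. The array weight of untreated array 3 was 5.11, beside 0.447 to 1.22 for the others. Apart from the removal of SERPINB8 by the filter, the cause of these differences was not tested.

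Alternatives were run gene by gene for 19 of the 40 members, those named by the rule. Among the uncalled ones of these, the sign turned for SERPINB1 under a second quantile normalization (-0.02) and without single arrays, where its change ran from -0.04 to 0.09. Without single arrays the change ran from -0.04 to 0.21 for CST3, from -0.03 to 0.09 for CSTA, from -0.02 to 0.06 for SERPINC1 and from -0.18 to 0.04 for SLPI. No sign turned for A2M, SERPINB8, SERPINI1 or the 10 called genes of the related lists in any setting. The signal filters, eBayes settings, replicate block and all clusters leave the change itself as it was, so they could not turn a sign.

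Over all genes, same-numbered arrays had r of -0.01, 0.24 and -0.14 for numbers 1, 2 and 3. Only number 2 had a positive r, so the numbers are not taken to pair the cultures. With the replicate block 1 member was called higher and 2 lower, beside 307 and 343 of all genes. In this balanced design a block cannot alter the size of a change, only its p. SERPINB8 kept its call (limma adjusted p = 0.007), while ENO1, PRSS8, ST14 and TIMP2 of the related lists were lost. Untreated array 3 had its highest r with selamectin array 1 (0.3), and untreated array 1 with selamectin array 3 (0.12). Untreated array 2 had its highest r with selamectin array 2. A block by these matches was not tested.

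Signal over background was not known for any gene. With 22 of 40 members under the 25th percentile of signal, small changes in those genes may have been missed: SERPINB3, with the widest interval of the 22, had one from -0.27 to 0.45.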

Other observations

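The 3 annotated serpin pseudogenes were left out of the group. SERPINB9P1, a transcribed pseudogene near SERPINB9 on chromosome 6, had log2 values of 11.10, 10.94 and 11.10 untreated and 11.41, 11.48 and 10.50 with selamectin. Selamectin arrays 1 and 2 were above every control and selamectin array 3 was below every control, so the treated SD was 0.54 beside 0.10 in the controls, and the change of 0.08 had an interval from -0.37 to 0.53. SERPINB9 itself stood at 6.37, 6.48 and 6.49 with selamectin and did not show this spread. SERPINA13P had a change of -0.01 and SERPINA2 by 0.09 (interval -0.05 to 0.24).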
